A study of Mus musculus with 4 samples.

Results

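The actin cytoskeleton and contractility genes are a list of 53 genes that encode actins, the proteins that bind, bundle and turn over actin filaments, non-muscle myosin II, and the small GTPase switches that act on them. Members were found by gene symbol in the count tables of cultured mouse keratinocytes, the main cells of the epidermis. Of the 53, 52 were measured among 13102 genes, and all 52 passed the filter of a mean of at least 1 CPM (counts per 1000000 counts) that left 12934 genes. Villin (Vil1) was not analysed here. Earlier results of these data were known when the list was chosen.

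The cells were primary epidermal keratinocytes of neonatal C57BL/6 mice, cultured for 48 h in 154CF medium with the HKGS kit. The 4 groups were untreated wild-type (WT) cells, WT cells given IL-17A, a cytokine of skin inflammation, at 100 ng/mL for 8 h, and cells of Il17rc knockout (KO) and of Il17rd KO mice given the same treatment. Il17rc and Il17rd both encode receptor chains for IL-17 cytokines. There is 1 library for each group, and no untreated KO library was analysed here. Thus no difference has a replicate check, no p-value was computed, and what a KO does on its own cannot be told apart from what it does under the cytokine. The sources used here do not give whether the cells of a library came from 1 animal or several.

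Actin monomers assemble into polar filaments that are nucleated by the Arp2/3 complex and by formins, crosslinked by alpha-actinins, filamin and fascin, coated by tropomyosins, and taken apart by cofilin and gelsolin. Bipolar filaments of non-muscle myosin II pull on them once the myosin light chains are phosphorylated, a step under the control of RhoA and its kinases ROCK1 and ROCK2. In keratinocytes this machinery is known for shaping cell contacts and for the crawling of cells at a wound edge. Free actin monomers also hold back cofactors of the transcription factor SRF, which binds the CArG box and drives many of the genes listed here, actins included.

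The libraries held 19711866 to 19904695 counts over the deposited genes. Il17rd had 252 counts in untreated WT cells, 265 in IL-17A-treated WT, 150 in Il17rc KO and 5 in Il17rd KO, and Il17rc had 2729, 1152, 439 and 1718, so each targeted gene was lowest in its own KO library. The defining keratinocyte genes were abundant, with 301441 to 390468 counts of Krt5 and 195461 to 234728 of Krt14. The summed level of 8 keratinocyte markers was 45693 CPM in untreated WT, 31815 in IL-17A-treated WT, 33836 in Il17rc KO and 36844 in Il17rd KO. This sum includes Krt1 and Krt10, each at least 4-fold lower in IL-17A-treated WT than in any other library. Of the 8 markers, 1 was called higher and 2 lower in IL-17A-treated WT than in untreated WT, by the rule given below. The libraries also differed in sex-linked transcripts: Xist had 2420, 4750, 2668 and 8513 counts, and Ddx3y had 654, 233, 749 and 2. Sex and treatment or genotype cannot be told apart here. In bulk RNA, fewer cells of a type and less RNA per cell cannot be told apart either.

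Ratios below are of counts scaled by library size. The 95% interval in parentheses covers counting error only and describes these libraries. A gene is called higher or lower where the log2 ratio, with a prior count of 2, is at least 1 in size (2-fold) and the interval of the ratio excludes 1. The comparisons of IL-17A-treated WT with untreated WT and of each KO with IL-17A-treated WT all use the same IL-17A-treated WT library, so they are not independent of each other.

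Transcripts of the actin machinery took a larger share of all counts in IL-17A-treated WT than in any of the other 3 libraries. The 52 genes summed to 32717 CPM in untreated WT, 44478 in IL-17A-treated WT, 30813 in Il17rc KO and 25737 in Il17rd KO. These sums were 3.15%, 4.38%, 3.12% and 2.68% of all counts. One gene, gamma-actin (Actg1), was far lower in the Il17rd KO library than elsewhere. Without it the remaining 51 genes summed to 27262, 39048, 26842 and 25246 CPM, so the untreated and both KO libraries lay close together and the IL-17A-treated WT library stood above all of them. The ratio of IL-17A-treated WT to the others was then 1.43 for untreated WT, 1.45 for Il17rc KO and 1.55 for Il17rd KO.

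**Figure D1:**
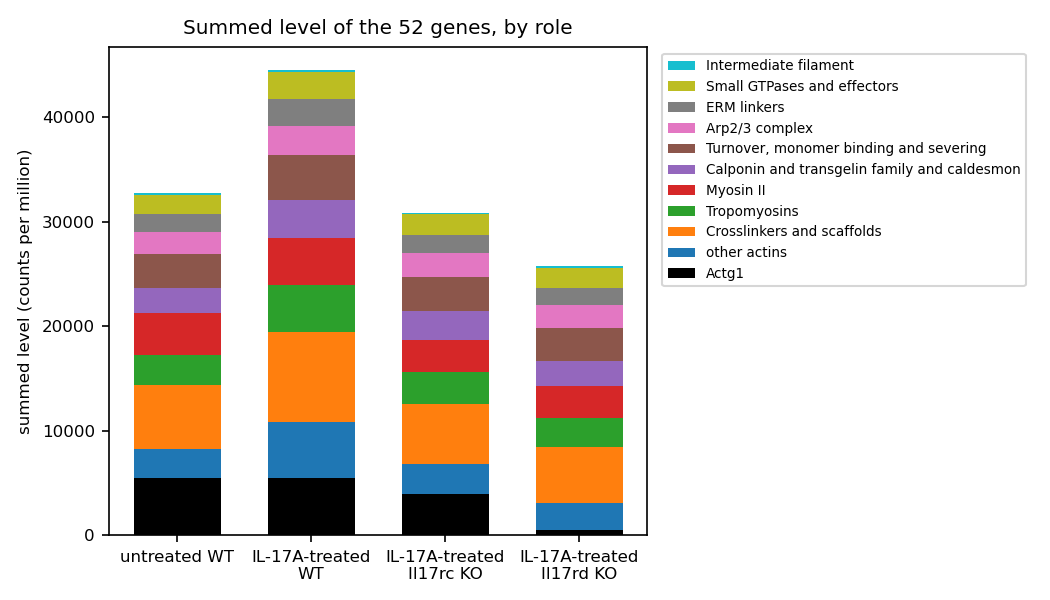
Summed level of the 52 actin cytoskeleton genes in each of the 4 libraries, in CPM on an axis that starts at 0, with the stacked colours giving the role of the genes and Actg1 drawn apart in black. The IL-17A-treated WT bar reaches 44478 CPM, and the black segment nearly vanishes in the Il17rd KO bar.

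Across the single genes the same order was common. IL-17A-treated WT was the highest of the 4 libraries for 39 of 52 members (75.0%), against 26.0% of all genes tested. Untreated WT was the highest for 10 (19.2%), against 35.2%, Il17rc KO for 3 (5.77%), against 26.7%, and Il17rd KO for 0, against 12.1%. The lowest library was untreated WT for 19 members (36.5%), Il17rc KO for 18 (34.6%), Il17rd KO for 14 (26.9%) and IL-17A-treated WT for 1 (1.92%), which was profilin 2 (Pfn2). Over all genes tested these shares were 35.7%, 21.6%, 12.7% and 30.01%, so untreated WT was lowest about as often as in the background.

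In IL-17A-treated WT against untreated WT, 6 of 52 members were called higher (Actb, Acta1, Actn1, Fscn1, Palld and Tagln), or 11.5%, against 8.68% of all genes tested, and 0 were called lower, against 10.5%. The share called higher was near the background, and most of the members lay above 0 by less than 2-fold. The median log2 ratio was 0.44 over the members and 0.00 over all genes tested, and 41 of 52 members (78.8%) lay above 0, against 50.4% of all genes. At 1.5-fold with an interval that excludes 1, 18 members were higher and 4 lower (Acta2, Myl9, Myl12b and Pfn2), against 17.8% and 18.8% of all genes tested. Among the 44 members with a mean of at least 100 CPM the median was also 0.44, while that of the 2338 genes at this level was 0.01.

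Both KO libraries with IL-17A lay below WT with IL-17A for most members. In Il17rc KO against IL-17A-treated WT, 6 members were called lower (Acta1, Palld, Cnn1, Tagln, Rhob and Rhoc), or 11.5%, against 4.68% of all genes tested, and 0 were called higher, against 6.02%. In Il17rd KO against IL-17A-treated WT, 5 members were called lower (Actb, Actg1, Acta1, Fscn1 and Cnn1), or 9.62%, against 3.6%, and 0 were called higher, against 6.05%. The median log2 ratios of the members were -0.43 and -0.46, those of all genes 0.04 and 0.01. Below 0 lay 47 of 52 members in either comparison, against 45.4% of all genes for Il17rc KO and 48.7% for Il17rd KO. At 1.5-fold, 19 members were lower in Il17rc KO and 18 in Il17rd KO, against 9.71% and 8.27% of all genes, and Pfn2 alone was higher in each.

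**Figure D2:**
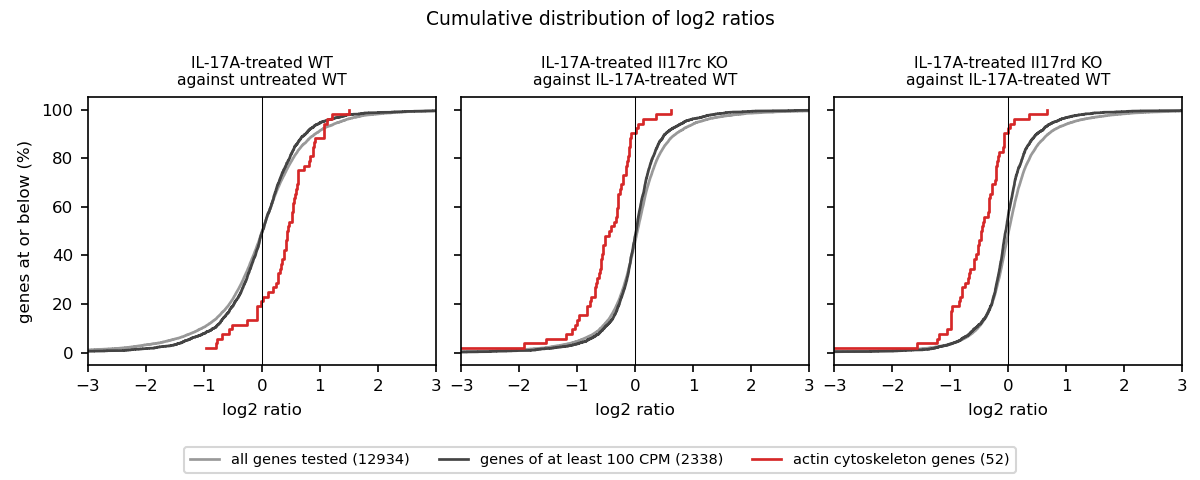
Cumulative share of genes (percent, vertical axis) at or below a log2 ratio (horizontal axis) in 3 comparisons, for the 52 actin cytoskeleton genes in red, all 12934 genes tested in light grey and the 2338 genes of at least 100 CPM in dark grey. The red line lies right of both grey lines with a median of 0.44 in the left panel, and left of them with medians of -0.43 and -0.46 in the other panels. The axes end at 3 in size, so the most extreme values are cut off.

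More members lay close to each other between the KO libraries, and between them and untreated WT, than between any of these and IL-17A-treated WT. Between Il17rc KO and Il17rd KO, 37 of 52 members (71.2%) were within 1.25-fold, near the 68.3% of all genes tested, and the median log2 ratio was 0.02, as over all genes. Against untreated WT, 28 members (53.8%) were within 1.25-fold in Il17rc KO and 33 (63.5%) in Il17rd KO, against 42.3% and 53.1% of all genes tested, with member medians of -0.05 and -0.03. Within 1.25-fold of IL-17A-treated WT were 12 members (23.1%) in untreated WT, 21 (40.4%) in Il17rc KO and 17 (32.7%) in Il17rd KO, against 39.7%, 56.1% and 59.6% of all genes.

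**Figure D3:**
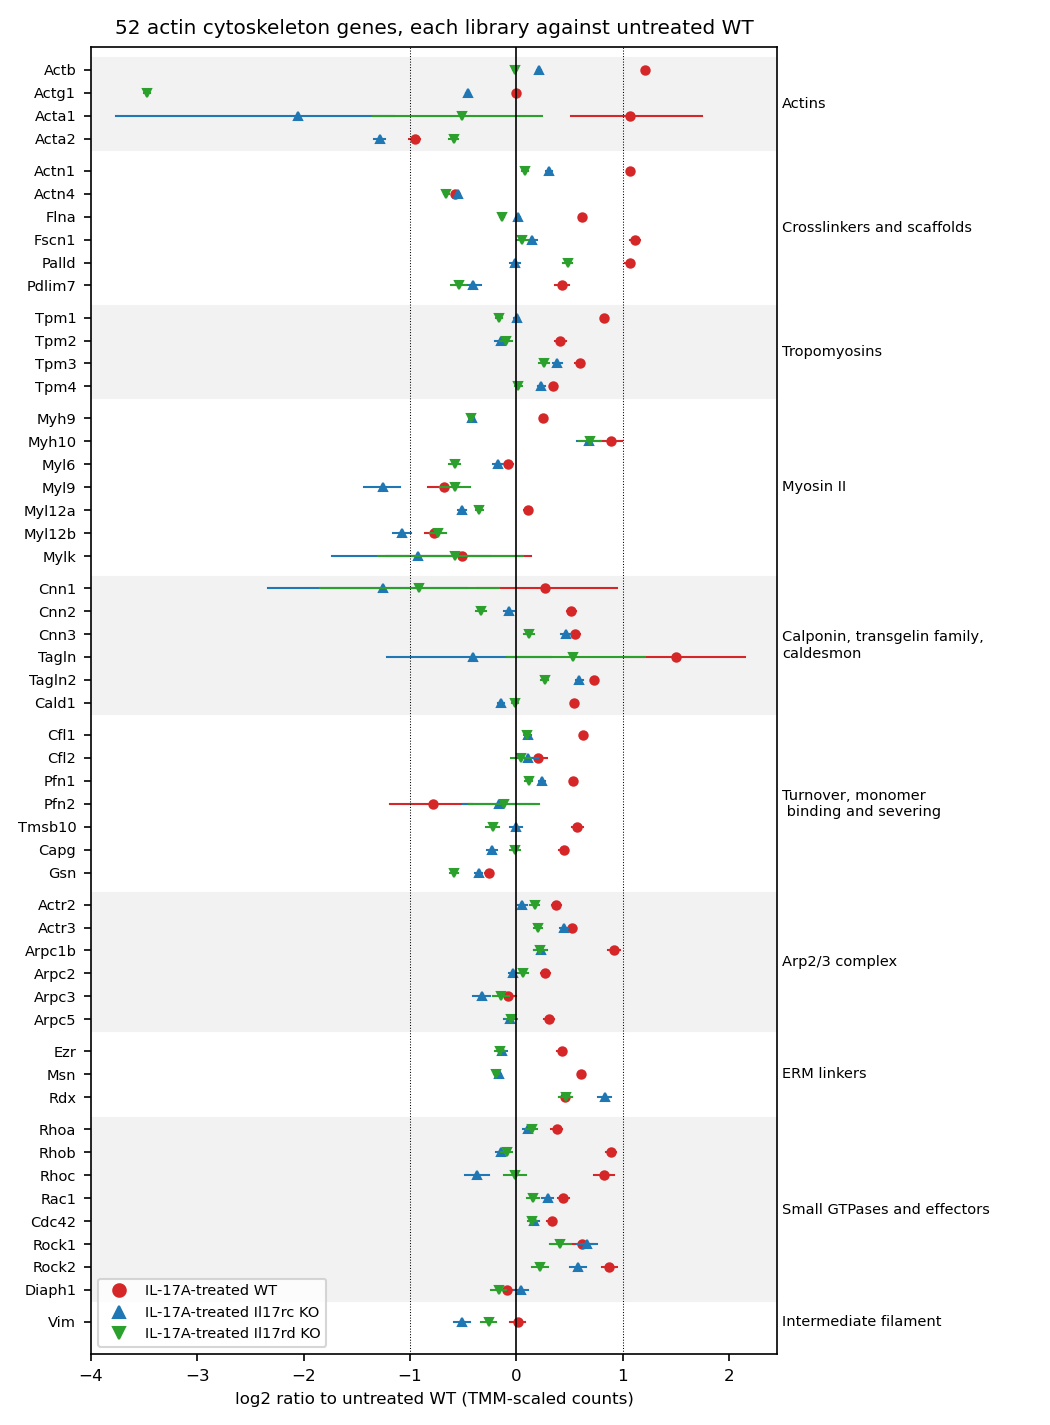
Log2 ratio to untreated WT (horizontal axis) of the 52 genes, grouped by role, in IL-17A-treated WT (red circles), Il17rc KO (blue triangles) and Il17rd KO (green triangles), with lines for the 95% counting interval and dotted lines at 2-fold. Most red circles lie right of both triangles, which gather near 0. Actg1 in Il17rd KO lies at -3.47.

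Promoter sequence was available for 48 of the 53 listed genes (RefSeq, GRCm38.p6, 250 bases before to 50 after the start). Promoters of Actb, Tagln, Rac1, Rock1 and Diaph1 were not matched. The CArG box (a pair of C, then 6 letters that are each A or T, then a pair of G, searched on both strands, which read alike) was found for 6 listed genes, Acta1, Actg1, Cnn2, Myl6, Myl9 and Vil1, or 12.5% of the 48, against 1.58% of the 9439 tested genes with a promoter in the table and 1.81% of all 27025 genes in it. Vil1 counts in the 12.5% but is not among the 9439 tested genes. Among the measured members with a promoter, 5 had the box and 42 lacked it. SRF binding was not measured, and boxes outside this stretch or with other letters were not searched. The windows around the box of the 5 measured genes are shown because SRF binds this element. The box is in capitals, and each window is written along the strand of its gene.
Acta1 box, chr8:123894829-123894858, minus strand: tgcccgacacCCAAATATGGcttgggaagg
Actg1 box, chr11:120348566-120348595, minus strand: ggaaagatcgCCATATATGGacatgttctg
Cnn2 box, chr10:79988534-79988563, plus strand: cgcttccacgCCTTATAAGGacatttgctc
Myl6 box, chr10:128493040-128493069, minus strand: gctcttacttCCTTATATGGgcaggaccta
Myl9 box, chr2:156775293-156775322, plus strand: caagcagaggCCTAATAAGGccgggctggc

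The box began 73 bases before the annotated start in Acta1, 90 in Actg1, 56 in Cnn2, 50 in Myl6 and 161 in Myl9. In IL-17A-treated WT against untreated WT their log2 ratios ran from -0.68 (Myl9) to 1.07 (Acta1) with a median of -0.01, while the 42 measured members whose promoter lacked the box had a median of 0.44. Against IL-17A-treated WT, the 5 had medians of -0.57 in Il17rc KO and -0.85 in Il17rd KO, and the 42 had -0.39 and -0.44. All 5 lay below IL-17A-treated WT in Il17rc KO, from -3.13 to -0.10, and 4 of the 5 did in Il17rd KO, Myl9 lying at 0.11. Against untreated WT all 5 lay below 0 in both KO libraries, from -2.06 to -0.07 in Il17rc KO and from -3.47 to -0.33 in Il17rd KO, with medians of -0.46 and -0.58 beside -0.02 and -0.02 for the 42. The 5 thus shared a direction in Il17rc KO against IL-17A-treated WT and in both KO libraries against untreated WT. They did not in Il17rd KO against IL-17A-treated WT or in IL-17A-treated WT against untreated WT. Of all 52 members, 47 lay below 0 in either KO against IL-17A-treated WT. Against untreated WT, 29 did in Il17rc KO and 30 in Il17rd KO. Acta1 had only 7 to 75 counts, and the value of Actg1 is uncertain, as given below. For Acta1, Myl9 and Cnn2, whose log2 ratios in IL-17A-treated WT against untreated WT were the largest in size of the 5, the 250 bases before the start are given to show the box in its surroundings.
Acta1 promoter, chr8:123894776-123895025, minus strand: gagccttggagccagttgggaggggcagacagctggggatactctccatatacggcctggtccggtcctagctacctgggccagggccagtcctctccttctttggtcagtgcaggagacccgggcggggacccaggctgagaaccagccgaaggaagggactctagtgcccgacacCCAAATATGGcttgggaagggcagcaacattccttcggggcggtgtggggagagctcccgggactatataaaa
Myl9 promoter, chr2:156775214-156775463, plus strand: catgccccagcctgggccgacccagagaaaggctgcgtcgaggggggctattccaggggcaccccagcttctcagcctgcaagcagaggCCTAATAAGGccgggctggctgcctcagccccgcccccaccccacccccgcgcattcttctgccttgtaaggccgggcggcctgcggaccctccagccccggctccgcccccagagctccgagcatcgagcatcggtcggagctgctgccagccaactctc
Cnn2 promoter, chr10:79988350-79988599, plus strand: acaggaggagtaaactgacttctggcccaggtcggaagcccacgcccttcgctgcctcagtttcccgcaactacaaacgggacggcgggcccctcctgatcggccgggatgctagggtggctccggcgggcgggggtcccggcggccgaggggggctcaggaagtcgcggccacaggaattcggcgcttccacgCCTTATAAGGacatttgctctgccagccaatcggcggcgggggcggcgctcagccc

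Among the actins, the cytoplasmic pair came apart. Actb, which encodes beta-actin (chromosome 5, 142903115 to 142906754, minus strand, GRCm38), had 42414 counts in untreated WT cells, 99848 in IL-17A-treated WT, 51299 in Il17rc KO and 45033 in Il17rd KO. IL-17A-treated WT thus held the highest value, and the other 3 libraries lay close together. Actb was 2.31-fold higher (2.28 to 2.33) in IL-17A-treated WT than in untreated WT. It was 1.99-fold lower (1.97 to 2.02) in Il17rc KO and 2.33-fold lower (2.30 to 2.35) in Il17rd KO than in IL-17A-treated WT, the former just short of a call.

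Actg1, which encodes gamma-actin (chromosome 11, 120345690 to 120348542, minus strand), had 104581 counts in untreated WT cells, 106257 in IL-17A-treated WT, 79635 in Il17rc KO and 10090 in Il17rd KO. The WT libraries without and with IL-17A differed by a log2 ratio of -0.01, and the Il17rd KO library stood alone at the bottom. The gene was 11.1-fold lower (10.8 to 11.3) in Il17rd KO than in IL-17A-treated WT, 11.1-fold lower (10.9 to 11.3) than in untreated WT, and 8.08-fold higher (7.92 to 8.25) in Il17rc KO than in Il17rd KO. Its level was 1.37-fold lower (1.35 to 1.38) in Il17rc KO than in IL-17A-treated WT. Per transcript length, the deposited FPKM of Actg1 over that of Actb was 2.49 in untreated WT, 1.07 in IL-17A-treated WT, 1.56 in Il17rc KO and 0.226 in Il17rd KO, so gamma-actin was the more abundant of the pair in 3 libraries and the less abundant in Il17rd KO.

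Actg1 reads can be shared with near-identical copies elsewhere in the genome, so its value is uncertain. By the rule used here (at least 95% identity over at least 50% of either transcript), 6 processed pseudogenes match it, 4 of them with counts. Those 4 copies summed to 932, 974, 838 and 827 counts in the 4 libraries in the same order, and adding them to Actg1 gave 105513, 107231, 80473 and 10917. The difference in Actg1 counts between the libraries was thus not made up at these copies. Within 250 kb of Actg1, 19 other tested genes had log2 ratios of -0.40 to 0.73 in Il17rd KO against IL-17A-treated WT, with a median of -0.06, and 0 of the 19 were called. Among the 3589 genes with at least 1000 counts in each of the other 3 libraries, Actg1 was the only one that lay at least 4-fold below the lowest of them in Il17rd KO. The same count was 0 of 3641 for Il17rc KO, 14 of 3817 for IL-17A-treated WT and 6 of 3887 for untreated WT. Those 6 were Ckap2l, Gapdh, Gm10925, Gm13408, Gm28437 and Kif23, named after their values were seen. Gapdh had 294 counts against 3319, 1945 and 2225. How reads that map to several places were handled is not given, so the counts at the copies cannot show where such reads went. The part of read assignment in the Actg1 value was not tested.

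The muscle-type actins were lower in level and less alike. Acta2 encodes smooth muscle alpha-actin (chromosome 19, 34241090 to 34255590, minus strand). It had 10223 counts in untreated WT cells, 5373 in IL-17A-treated WT, 4387 in Il17rc KO and 7276 in Il17rd KO, so untreated WT was the highest and Il17rc KO the lowest. Acta2 was 1.94-fold lower (1.88 to 2.01) in IL-17A-treated WT than in untreated WT, 1.25-fold lower (1.21 to 1.31) in Il17rc KO and 1.29-fold higher (1.25 to 1.34) in Il17rd KO than in IL-17A-treated WT. Against untreated WT it was 2.44-fold lower (2.35 to 2.53) in Il17rc KO. Its direction in IL-17A-treated WT was thus opposite to that of Actb, and the FPKM of Acta2 over that of Actb was 0.363, 0.0809, 0.129 and 0.243.

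Acta1, the skeletal muscle actin gene (chromosome 8, 123891769 to 123894751, minus strand), was near the lower limit of these data. It had 34 counts in untreated WT cells, 75 in IL-17A-treated WT, 7 in Il17rc KO and 25 in Il17rd KO. As for Actb the highest library was IL-17A-treated WT, but the intervals were far wider. Acta1 was 2.16-fold higher (1.42 to 3.34) in IL-17A-treated WT than in untreated WT, 11.0-fold lower (5.07 to 28.2) in Il17rc KO and 3.15-fold lower (1.98 to 5.17) in Il17rd KO than in IL-17A-treated WT. It was the 1 member called lower in Il17rc KO than in Il17rd KO, 3.49-fold (1.47 to 9.55), as Actg1 was the 1 called higher, against 2.51% and 1.41% of all genes tested. At 1.5-fold, Actg1 was again the 1 member higher and 4 were lower (Acta1, Acta2, Myl9 and Tagln), against 5.21% and 6.77%.

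**Figure D4:**
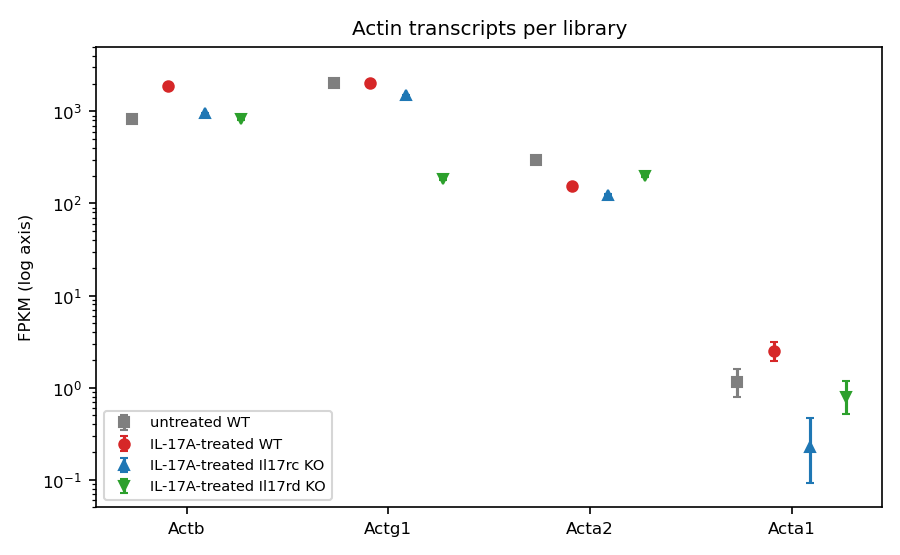
Deposited FPKM of the 4 actin genes (logarithmic vertical axis) in each library, with exact 95% Poisson intervals of the counts, which are smaller than the symbols for the 3 abundant genes. Actb is highest in IL-17A-treated WT, Acta2 in untreated WT, and Actg1 is low in the Il17rd KO library alone, at 184 FPKM against 2048 in untreated WT.

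Markers of cells other than keratinocytes that use Acta2, Acta1, Tagln and Cnn1 were measured alongside. Of 11 smooth muscle and pericyte markers, 8 had counts, and the 5 that are not members summed to 358, 635, 577 and 383 CPM in untreated WT, IL-17A-treated WT, Il17rc KO and Il17rd KO; Myh11, Des and Rgs5 were not analysed here. Of 16 fibroblast markers, 14 had counts and summed to 870, 824, 453 and 747 CPM. In IL-17A-treated WT against untreated WT, 9 of the 14 were called lower and 1 higher, with Col1a1 at 247, 27, 128 and 233 counts. Of the 14, 7 were called higher and 2 lower in Il17rc KO, and 9 higher and 0 lower in Il17rd KO, than in IL-17A-treated WT. Of 7 skeletal muscle markers besides Acta1 only Mylpf had counts, 60, 42, 31 and 35. In the same order of libraries, endothelial markers (2 of 5) summed to 10.4, 17.6, 7.88 and 10.5 CPM, immune markers (4 of 6) to 52.9, 24.5, 6.58 and 23.0, and melanocyte markers (6 of 6) to 2363, 1548, 2007 and 2159. By their sum, immune markers were thus lowest in Il17rc KO. There 3 of 4 were called lower than in untreated WT, IL-17A-treated WT and Il17rd KO, against 6.73%, 4.68% and 2.51% of all genes. The remaining 1 was called higher in Il17rc KO than in IL-17A-treated WT. Melanocyte markers were lowest in IL-17A-treated WT. The part of such cells in the values of Acta2, Acta1, Tagln, Cnn1 and Vim was not tested.

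The crosslinkers and scaffolds formed the group with the highest median in IL-17A-treated WT, with 4 of 6 members at least 1.5-fold higher than in untreated WT and 0 lower, and a median log2 ratio of 0.84. Actn1, an alpha-actinin gene whose product links filaments in stress fibres and adhesions (chromosome 12, 80167547 to 80260371, minus strand), had 20094 counts in untreated WT cells, 43111 in IL-17A-treated WT, 26047 in Il17rc KO and 22800 in Il17rd KO. It was 2.10-fold higher (2.07 to 2.14) in IL-17A-treated WT than in untreated WT, and 1.70-fold (1.67 to 1.72) and 1.98-fold (1.95 to 2.02) lower in Il17rc KO and Il17rd KO than in IL-17A-treated WT. Its paralog Actn4 ran the other way, with 38308, 26268, 27403 and 25960 counts. Untreated WT was the highest library for Actn4, and the 3 IL-17A-treated libraries lay within 1.08-fold of each other. The FPKM of Actn4 over that of Actn1 was 1.72 in untreated WT, 0.550 in IL-17A-treated WT, 0.950 in Il17rc KO and 1.03 in Il17rd KO.

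Fascin (Fscn1), which bundles the parallel filaments of protrusions (chromosome 5, 142960343 to 142973185, plus strand), had 5590 counts in untreated WT cells, 12362 in IL-17A-treated WT, 6470 in Il17rc KO and 6215 in Il17rd KO. Only IL-17A-treated WT stood apart. Fscn1 was 2.17-fold higher (2.10 to 2.24) in IL-17A-treated WT than in untreated WT, and 1.96-fold (1.90 to 2.02) and 2.09-fold (2.02 to 2.15) lower in Il17rc KO and Il17rd KO than in IL-17A-treated WT.

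Palladin (Palld), a scaffold of stress fibres (chromosome 8, 61511433 to 61902690, minus strand), had 6904, 14743, 7150 and 10334 counts in the 4 libraries. Il17rc KO and untreated WT differed by a log2 ratio of -0.01, and Il17rd KO lay between them and IL-17A-treated WT. Palld was 2.09-fold higher (2.03 to 2.15) in IL-17A-treated WT than in untreated WT, 2.11-fold lower (2.05 to 2.17) in Il17rc KO than in IL-17A-treated WT, and 1.41-fold lower (1.37 to 1.45) in Il17rc KO than in Il17rd KO. Filamin A (Flna), which crosslinks filaments into networks and lies on chromosome X (74223461 to 74249820, minus strand), had 43022, 67288, 45372 and 41991 counts, and was 1.53-fold higher (1.51 to 1.55) in IL-17A-treated WT than in untreated WT. The PDZ and LIM domain scaffold gene Pdlim7 had 3433, 4710, 2706 and 2523 counts, and both KO libraries lay below untreated WT.

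All 4 tropomyosin genes, whose coiled-coil products lie along the filament and govern what can bind it, were highest in IL-17A-treated WT. Tpm1 had 27364 counts in untreated WT cells, 49382 in IL-17A-treated WT, 28663 in Il17rc KO and 26159 in Il17rd KO, and was 1.77-fold higher (1.74 to 1.79) in IL-17A-treated WT than in untreated WT and 1.98-fold lower (1.95 to 2.01) in Il17rd KO than in IL-17A-treated WT. Tpm4 differed less, with 16131, 20954, 19854 and 17518 counts. Tpm1 followed the pattern of Actb, whereas Tpm4 and Tpm3 (6672, 10279, 9116 and 8555 counts) were nearer to IL-17A-treated WT in Il17rc KO, at log2 ratios of -0.11 and -0.21. The FPKM of Tpm1 over that of Tpm4 was 0.576, 0.801, 0.490 and 0.507 in the same order. Tpm2 had 5147, 7001, 4881 and 5140 counts.

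Myosin II genes as a group did not follow most of the list. Its 7 members had a median log2 ratio of -0.08 in IL-17A-treated WT against untreated WT, and 3 of the 7 were highest in IL-17A-treated WT. Myh9, the main non-muscle heavy chain gene here, had 51150 counts in untreated WT cells, 62005 in IL-17A-treated WT, 40168 in Il17rc KO and 40645 in Il17rd KO. It was 1.19-fold higher (1.17 to 1.20) in IL-17A-treated WT than in untreated WT, and both KO libraries lay below untreated WT, by 1.33-fold (1.31 to 1.35) and 1.35-fold (1.33 to 1.37). The second heavy chain gene, Myh10, had 1132, 2138, 1897 and 1961 counts and was above untreated WT in all 3 treated libraries, 1.85-fold (1.72 to 1.99) in IL-17A-treated WT, and by log2 ratios of 0.68 in Il17rc KO and 0.69 in Il17rd KO. The FPKM of Myh9 over that of Myh10 was 36.6, 23.5, 17.1 and 16.8, so Myh9 was the more abundant everywhere.

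The light chains went in several directions. Myl9, the regulatory light chain gene typical of smooth muscle, had 968 counts in untreated WT cells, 614 in IL-17A-treated WT, 422 in Il17rc KO and 694 in Il17rd KO, the same order as Acta2. It was 1.61-fold lower (1.45 to 1.78) in IL-17A-treated WT and 2.40-fold lower (2.14 to 2.70) in Il17rc KO than in untreated WT. Of the non-muscle regulatory chains, Myl12a had 13705, 15054, 10083 and 11536 counts and Myl12b 3439, 2049, 1711 and 2213. Myl12b was 2.10-fold lower (1.98 to 2.23) in Il17rc KO than in untreated WT, but these are neighbours on 1 strand with overlapping annotation and near-identical copies, so the split of reads between them is uncertain. The essential light chain gene Myl6 had 7373, 7132, 6840 and 5282 counts. Mylk, the myosin light chain kinase gene, was scarce at 25 to 47 counts, and the intervals of its ratios to IL-17A-treated WT all include 1.

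All 6 genes of the calponin and transgelin family and caldesmon were highest in IL-17A-treated WT, whether abundant or scarce. Tagln2, the transgelin of non-muscle cells, had 13651 counts in untreated WT cells, 23137 in IL-17A-treated WT, 21534 in Il17rc KO and 17576 in Il17rd KO, so it stayed nearer to IL-17A-treated WT in Il17rc KO (1.10-fold lower, 1.08 to 1.12) than in Il17rd KO (1.38-fold lower, 1.35 to 1.41). Cald1, which encodes caldesmon, an inhibitor of the myosin ATPase on actin, had 17977, 26720, 16990 and 19098 counts, and here both KO libraries lay near untreated WT. Cnn2 and Cnn3, the calponins of non-muscle cells, had 8038, 11750, 8016 and 6827 and 6304, 9435, 9108 and 7327 counts.

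The smooth muscle members of that family were called on small counts. Tagln (chromosome 9, 45929619 to 45936058, minus strand) had 35 counts in untreated WT cells, 105 in IL-17A-treated WT, 27 in Il17rc KO and 55 in Il17rd KO. It was 2.94-fold higher (1.99 to 4.44) in IL-17A-treated WT than in untreated WT and 3.98-fold lower (2.59 to 6.33) in Il17rc KO than in IL-17A-treated WT. A gene on the other strand, Gm48529, overlaps 62.4% of the exonic bases of Tagln, and the sources used here do not give whether the counting used strand. Cnn1 had 37, 46, 15 and 20 counts, and was 3.14-fold lower (1.72 to 6.06) in Il17rc KO and 2.41-fold lower (1.40 to 4.31) in Il17rd KO than in IL-17A-treated WT. In IL-17A-treated WT against untreated WT its ratio of 1.22 had an interval of 0.773 to 1.93.

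Of the 7 measured genes of filament turnover and monomer binding, 5 were highest in IL-17A-treated WT. Cofilin 1 (Cfl1), which severs aged filaments, had 19491 counts in untreated WT cells, 30680 in IL-17A-treated WT, 22061 in Il17rc KO and 22372 in Il17rd KO. Profilin 1 (Pfn1), which feeds monomers to growing ends, had 15233, 22511, 18850 and 17697. Their less abundant paralogs differed less or ran the other way: Cfl2 had 1850, 2168, 2094 and 2040 counts, and Pfn2 had 157, 92, 146 and 155. Pfn2 was 1.74-fold lower (1.34 to 2.28) in IL-17A-treated WT than in untreated WT and 1.55-fold (1.18 to 2.03) and 1.61-fold (1.23 to 2.10) higher in the KO libraries than in IL-17A-treated WT, the inverse of most members. The FPKM of Pfn1 over that of Pfn2 was 143, 360, 190 and 168.

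Thymosin beta 10 (Tmsb10), which binds actin monomers, had 5153, 7834, 5374 and 4726 counts, and the capping protein gene Capg 7062, 9813, 6304 and 7481. Tmsb10 has near-identical copies, and 2 of them, Gm9844 and Gm3788, summed to 291, 1542, 731 and 961 counts, so its split of reads is uncertain. Gelsolin (Gsn), which severs and caps filaments under calcium, was highest in untreated WT, with 13560, 11601, 11081 and 9696 counts.

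In the Arp2/3 complex, the nucleator of branched networks, 5 of the 6 subunit genes on the list were highest in IL-17A-treated WT. Its sum was 1.34-fold that of untreated WT in IL-17A-treated WT, and IL-17A-treated WT was 1.23-fold Il17rc KO and 1.24-fold Il17rd KO. Arpc1b stood out from the other subunits, with 3979 counts in untreated WT cells, 7662 in IL-17A-treated WT, 4881 in Il17rc KO and 4974 in Il17rd KO, which is 1.89-fold higher (1.82 to 1.96) in IL-17A-treated WT than in untreated WT and 1.61-fold (1.55 to 1.67) and 1.62-fold (1.56 to 1.68) lower in the KO libraries than in IL-17A-treated WT. The log2 ratios of Actr2, Actr3, Arpc2, Arpc3 and Arpc5 to untreated WT in IL-17A-treated WT ran from -0.08 (Arpc3) to 0.52 (Actr3). Subunit genes outside the list were Arpc4, highest in IL-17A-treated WT (158, 194, 151 and 153 CPM), Arpc1a, highest in untreated WT (142, 133, 108 and 114), and Arpc5l, highest in Il17rd KO (53.0, 60.1, 57.9 and 61.0), named after their values were seen. Subunits of 1 complex thus differed unequally, and Arpc1b, Actr2, Actr3 and Arpc2 have near-identical copies.

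The ERM genes encode linkers of filaments to the plasma membrane. Moesin (Msn, chromosome X, 96096042 to 96168552, plus strand) had 22660 counts in untreated WT cells, 35346 in IL-17A-treated WT, 21102 in Il17rc KO and 21326 in Il17rd KO, and Ezr had 7555, 10350, 7214 and 7254. Both were highest in IL-17A-treated WT, and for Msn the KO libraries differed by a log2 ratio of 0.02. Radixin (Rdx) had 3415, 4796, 6351 and 5046 counts and was highest in Il17rc KO, 1.29-fold (1.24 to 1.34) above IL-17A-treated WT and 1.78-fold (1.71 to 1.85) above untreated WT. Flna and Msn are X-linked, and the libraries differed in Xist and Ddx3y as given above; the part of sex in these 2 genes was not tested.

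Within the small GTPases, the molecular switches upstream of contraction and protrusion, Rhob and Rhoc differed more than the others. Rhob (chromosome 12, 8497661 to 8500009, minus strand) had 6067 counts in untreated WT cells, 11484 in IL-17A-treated WT, 5745 in Il17rc KO and 6096 in Il17rd KO. It was 1.85-fold higher (1.80 to 1.91) in IL-17A-treated WT than in untreated WT, and 2.05-fold (1.98 to 2.11) and 1.98-fold (1.92 to 2.04) lower in Il17rc KO and Il17rd KO than in IL-17A-treated WT. Rhoc (chromosome 3, 104788375 to 104794459, plus strand) had 1416, 2552, 1148 and 1501 counts, and was 1.77-fold higher (1.65 to 1.89) in IL-17A-treated WT than in untreated WT and 2.28-fold lower (2.12 to 2.44) in Il17rc KO than in IL-17A-treated WT. For both genes only IL-17A-treated WT was high.

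Rhoa, Rac1 and Cdc42, the founding members of their classes, differed less, with log2 ratios to untreated WT of 0.38, 0.44 and 0.33 in IL-17A-treated WT. Per length, Rhob over Rhoa was 3.31, 4.72, 2.77 and 2.80, and Rhoc over Rhoa 1.12, 1.52, 0.803 and 1.002. Daglb on the other strand overlaps 51.4% of the exonic bases of Rac1, so reads of the pair cannot be told apart without strand. Among the effectors, the kinase gene Rock2 had 2374 counts in untreated WT cells, 4447 in IL-17A-treated WT, 3720 in Il17rc KO and 2967 in Il17rd KO, and Rock1 had 1429, 2241, 2373 and 2038. Both were above untreated WT in all 3 treated libraries. Diaph1, a formin gene, stayed between 3279 and 3703 counts.

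Vimentin (Vim), an intermediate filament gene of mesenchymal cells that binds to this machinery, had 3442 counts in untreated WT cells, 3542 in IL-17A-treated WT, 2527 in Il17rc KO and 3081 in Il17rd KO, so the WT libraries without and with IL-17A differed by a log2 ratio of 0.01.

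Against untreated WT, no member was called higher in either KO library, against 7.08% of all genes tested for Il17rc KO and 5.12% for Il17rd KO. Called lower were 5 members in Il17rc KO (Acta1, Acta2, Myl9, Myl12b and Cnn1), or 9.62%, against 6.73%, and 1 in Il17rd KO (Actg1), or 1.92%, against 3.19%. Acta2, Myl9 and Cnn1 are typical of smooth muscle, as is Tagln, which was not called (1.36-fold lower, 0.797 to 2.33). Mylk was not called either (1.97-fold lower, 1.19 to 3.33). Of the 8 smooth muscle and pericyte markers with counts, members included, 1 was called higher and 2 lower in Il17rc KO than in untreated WT. Those 2 were Acta2 and Cnn1 themselves. The median log2 ratio of the 8 was 0.002. The 5 outside the list summed higher in Il17rc KO than in untreated WT, as given above. Of the 14 fibroblast markers with counts, 6 were called lower and 0 higher in Il17rc KO than in untreated WT, against 6.73% and 7.08%. The median log2 ratio of the 14 was -0.89. The part of smooth muscle cells or fibroblasts in these values was not tested. At 1.5-fold, 4 members were higher in Il17rc KO (Myh10, Tagln2, Rdx and Rock1), against 15.4%, and 6 lower, against 15.9%. In Il17rd KO, 1 was higher (Myh10), against 11.3%, and 5 lower, against 10.0%.

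Genes of the same pathway were also counted outside the list. Over 131 such genes, 19 (14.5%) were called higher, against the 8.68% of all genes tested given above, and 8 (6.11%) lower, against 10.5%, in IL-17A-treated WT than in untreated WT, the median log2 ratio being 0.19. In Il17rc KO 7 (5.34%) were higher and 13 (9.92%) lower than in IL-17A-treated WT, against 6.02% and 4.68%, with a median of -0.19. In Il17rd KO 2 (1.53%) were higher and 9 (6.87%) lower than in IL-17A-treated WT, against 6.05% and 3.6%, with a median of -0.18. Of the 6 lists these genes came from, that of focal adhesions and stress fibres came nearest to the members by its median, with 6 of 27 called higher and 2 lower in IL-17A-treated WT and a median of 0.48. Fermt1, which encodes kindlin-1, an activator of integrins in keratinocytes, had 2016 counts in untreated WT cells, 6912 in IL-17A-treated WT, 1704 in Il17rc KO and 1874 in Il17rd KO. Parva, an actin-binding adhesion gene, had 2831, 7780, 4997 and 4304, and Csrp2 had 78, 259, 169 and 109. Pdlim2 ran the other way, with 1113, 184, 868 and 346 counts. It was called lower in IL-17A-treated WT than in untreated WT and higher in Il17rc KO than in IL-17A-treated WT.

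Genes of SRF and its actin-regulated cofactors, with known targets outside the list, had 3 of 12 called higher and 0 lower in IL-17A-treated WT, 1 higher and 3 lower in Il17rc KO, and 0 higher and 4 lower in Il17rd KO, each KO against IL-17A-treated WT. Over these comparisons together, the called genes were secreted matrix proteins for the most part. Those called higher in IL-17A-treated WT were Cyr61, Thbs1 and Tgfb1i1, and Ctgf fell just short of that call. Cyr61 had 2872 counts in untreated WT cells, 13861 in IL-17A-treated WT, 2176 in Il17rc KO and 3054 in Il17rd KO, Thbs1 had 20947, 50625, 19429 and 20718, and Ctgf had 2747, 5583, 1219 and 792. Each of these was highest in IL-17A-treated WT, as Actb was. Tgfb1i1, an adhesion adaptor, had 139, 450, 345 and 218 counts. The 1 gene called higher in Il17rc KO was Filip1l, named after its values were seen, with 3233, 1673, 4344 and 3300. Srf itself had 2879, 3393, 3302 and 2997 counts and was called in none of these comparisons, and the median of the 12 in IL-17A-treated WT was -0.10.

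Formins and other nucleators had 3 of 23 called higher and 1 lower in IL-17A-treated WT than in untreated WT, with a median of 0.08. Diaph3, a formin of dividing cells, had 460, 1549, 2558 and 1385 counts, Fmnl2 had 667, 1602, 1687 and 1245, Fhod1 had 121, 258, 95 and 136, and Cobl had 2118, 987, 1188 and 1167. Of 25 capping, severing and bundling genes, Capza1 was called higher in IL-17A-treated WT (3086, 6316, 5901 and 5843 counts), and Lcp1 was called lower in Il17rc KO than in IL-17A-treated WT on 25, 46, 7 and 24 counts. Of 33 further small GTPases, regulators and effectors, 3 were called higher and 2 lower in IL-17A-treated WT than in untreated WT. Ect2, an activator of RhoA in cell division, had 377, 893, 2380 and 1352 counts, Pak2 had 3075, 7208, 4805 and 4239, Cdc42ep2 had 124, 32, 65 and 70, and Rnd1 had 108, 182, 71 and 112. Ect2 and Diaph3 were thus highest in Il17rc KO, unlike Pak2 and Rnd1.

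Of 11 other myosins, 3 were called higher and 3 lower in IL-17A-treated WT than in untreated WT. Myh14, the third non-muscle heavy chain gene, had 2569 counts in untreated WT cells, 838 in IL-17A-treated WT, 1206 in Il17rc KO and 1241 in Il17rd KO, Myo6 had 2974, 1072, 1795 and 1964, and Myo5a had 9451, 4090, 6850 and 6553. These 3 are the ones called lower, and each was lowest in IL-17A-treated WT. With Myh9 and Myh10 above untreated WT in that library and Myh14 below, the non-muscle heavy chains did not share a direction.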

How the data were processed

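RNA of 4 keratinocyte libraries, 1 per group, was analysed from 1 table each. The deposited counts are whole reads for each gene and carry no normalization. Deposited FPKM values were used for levels per transcript length, since they match the counts over scaled library sizes and gene length. The submitters' processing notes name build mm10 and, with no order, HISAT2, featureCounts (Subread), edgeR and Trim Galore 0.4.4. The sources used here do not give the annotation, the strand setting or what was done with multi-mapping reads. Every deposited gene exceeded 1 CPM in at least 2 libraries.

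Library sizes were scaled by TMM (edgeR 4.0.16), the factors being 0.963 for untreated WT, 0.984 for IL-17A-treated WT, 1.01 for Il17rc KO and 1.04 for Il17rd KO. Ratios carry exact 95% Clopper-Pearson intervals, computed on one count given the sum of both. Since the reads carry no stated molecular identifiers, they are not independent molecules, and intervals cover counting error only. The scripts were tested on simulated data. Coordinates and overlaps are from GENCODE M21 (GRCm38), copies from a BLAST+ 2.17.0 search of its transcripts, and promoters from RefSeq (GRCm38.p6).

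The members, the other lists and the tests were chosen with earlier results of these data known. Members called or reaching 1000 CPM are given in every library, and up to 4 called genes of each other list. Alternatives were other scalings (DESeq2 1.42.0 size factors, total counts, deposited FPKM), filters, prior counts, fold sizes, and the members without near-identical copies. Those without Actg1 and against genes of at least 100 CPM were added after seeing the data. There were 17 symbols turned into dates, which were not used. A gene that the naming rule selects from the other lists is not reported here.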

Additional observations from a re-analysis of the deposited data

Results flagged for a closer look

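The genes below lay on opposite sides of IL-17A-treated WT in the KO libraries, with counting intervals that exclude 1 on both sides. The difference was not tested, since each group has 1 library. Acta2 had a log2 ratio to IL-17A-treated WT of -0.33 in Il17rc KO and 0.37 in Il17rd KO. Actn4 had 0.026 and -0.087, and Diaph1 had 0.13 and -0.075. Actn4 and Diaph1 differed from IL-17A-treated WT by at most 1.10-fold in either library.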

How the results depend on the processing

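No paired analysis was possible because each group has 1 library, and leaving out a library ends the comparison. With 1.5-fold in place of 2-fold, 18 members were higher and 4 lower in IL-17A-treated WT than in untreated WT, 1 and 19 in Il17rc KO than in IL-17A-treated WT, and 1 and 18 in Il17rd KO than in IL-17A-treated WT. Lower in Il17rc KO than in Il17rd KO were 4, higher in Il17rc KO than in untreated WT were 4, and 1 was higher and 5 lower in Il17rd KO than in untreated WT. With 3-fold, 0 were higher in IL-17A-treated WT, 2 lower in Il17rc KO and 1 in Il17rd KO than in IL-17A-treated WT, 0 lower in Il17rc KO than in Il17rd KO, and 1 lower in Il17rc KO than in untreated WT. With a minimum mean of 10 CPM, which leaves out Acta1, Cnn1, Tagln, Mylk and Pfn2, the members called lower were 3 in each KO against IL-17A-treated WT, 0 in Il17rc KO against Il17rd KO and 3 in Il17rc KO against untreated WT.

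With the 13 members that have a near-identical copy left out, the median log2 ratio was -0.56 in Il17rc KO and -0.50 in Il17rd KO against IL-17A-treated WT, and -0.14 in Il17rc KO against untreated WT. With Actg1 among them, 0 members were then higher in Il17rc KO than in Il17rd KO and 0 lower in Il17rd KO than in untreated WT. The sums were then 21951, 31942, 21191 and 19846 CPM in untreated WT, IL-17A-treated WT, Il17rc KO and Il17rd KO, and 27262, 39048, 26842 and 25246 CPM with Actg1 alone left out. Total counts in place of TMM gave a median of -0.37 in Il17rd KO against IL-17A-treated WT, and turned the sign of 2 medians near 0, to -0.022 in Il17rc KO against Il17rd KO and to 0.081 in Il17rd KO against untreated WT. No scaling moved the median of all genes by more than 0.11. Of 1248 single values, 182 moved outside their counting interval, by up to 0.33 on the log2 scale, and 0 called ratios changed sign.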
